A study of Solenopsis invicta with 12 samples.

Results

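The single-exon assembled loci of the fire ant antennal transcriptome were examined, across worker genotype, social form of the colony and colony of origin. A locus was included if it carries an XLOC identifier in the deposited expression tables and every transcript annotated for it on the Si_gnH genome has exactly 1 exon. The rule itself reads exon numbers and no level, but the annotation was assembled from the reads of these same libraries. It gave 2651 loci among the 3641 assembled (XLOC) genes and the 19230 genes of the tables, after 4 further single-exon loci on the study's lists of changed genes were left out. Among the other XLOC genes, 510 have 1 transcript with several exons and 476 have several transcripts.

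RNA was taken from pools of antennae of foraging workers of *Solenopsis invicta*, amplified and sequenced in 12 libraries, 4 for each of 3 worker classes. P_Bb workers have the SB/Sb genotype at the social chromosome and live in polygyne colonies, which have several queens. P_BB workers have the SB/SB genotype and live in the same polygyne colonies. M_BB workers have the SB/SB genotype and live in monogyne colonies, which have a single queen. The bioreplicates of each class are numbered 2, 3, 6 and 7, and values of a class are given in this order. P_Bb and P_BB of a number come from 1 polygyne colony, so the 8 polygyne libraries rest on 4 colonies, and M_BB of that number comes from a monogyne colony that the study's supplement pairs with it by day of collection and of sampling. By the study's account monogyne workers are all SB/SB, so there is no monogyne SB/Sb class. Genotype was compared as P_Bb against all 8 SB/SB libraries, a contrast in which the SB/SB side includes 4 libraries of monogyne colonies. Social form was compared as all 8 polygyne libraries against M_BB, a contrast in which the polygyne side includes the SB/Sb genotype. In pooled antennae, fewer cells of a type and less RNA per cell cannot be told apart.

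The social chromosome of the fire ant carries a supergene, a block of genes inherited together, in the variants SB and Sb. Colonies with workers carrying Sb accept several queens, and antennae are the organs with which workers perceive odors. An assembled locus is a stretch of genome that reads cover. With a single exon it has no splice site, so it can be an intronless gene, a transposable element, a viral sequence, an untranslated end of a neighbouring gene, or unspliced RNA. Transposable elements are sequences that copy or move themselves within a genome, and many of them encode a reverse transcriptase or an integrase.

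Libraries held 1662249 to 4101327 expected counts, the counts that RSEM assigns to genes. M_BB bioreplicate 2 stood apart, with a highest Spearman correlation of 0.908 with any other library, against 0.952 or more for each of the others. By the study's supplement P_Bb bioreplicate 7 had the highest share of duplicate reads, followed by M_BB bioreplicate 2 and P_BB bioreplicate 2. Whether this bears on their values was not tested. M_BB bioreplicate 2 also shares the library name prefix LGC16 with the 3 libraries of bioreplicate 7, whereas the other 8 libraries have the prefix LGC. Calls that changed without it or within the LGC libraries are given with the comparisons by genotype, between nestmates and by social form. Of the antennal genes that the study names with an identifier, the odorant receptor SiOR463 was at 3.94 to 16.0 TPM (a level per transcript length, scaled to the same total in each library) and SiOR462 at 0 to 6.59 TPM over the 12 libraries. The odorant-binding protein SiOBP12 was at 0 to 105 TPM, with means of 61.6 TPM in P_Bb, 3.82 TPM in P_BB and 0.728 TPM in M_BB.

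The loci differed in how they relate to gene models. For 2160 of the 2651 loci (81.5%) the annotation gives no gene model at the position. For 414 loci (15.6%) the assembled transcript is identical to a SINV gene model of the annotation, 422 such models in all, so the description "outside the official set" rests on their XLOC identifier and not on the absence of a model. Another 76 loci (2.87%) lie antisense to a gene model, and 1 lies in an intron. The strand is not given for 1991 loci (75.1%), among them 1990 of the 2160 with no gene model. The RNA was amplified with a kit that is not stated to keep strand, so reads of an antisense locus cannot be told apart from those of the gene opposite to it.

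The loci varied widely in length. The span had a median of 1406 bases (quartiles 832 and 2621), with 259 loci under 500 bases and 73 of 10000 bases or more. In the tables the median length was 1401 bases for the single-exon loci and 828 bases for the 15589 official genes. There were 2511 loci with 1 transcript, 120 with 2, 17 with 3 and 3 with 4. Scaffolds held 1979 of the loci (74.7%) and contigs the remaining 672 (25.3%), on 1365 sequences in all. As many as 603 loci (22.7%) were the only annotated locus of their sequence. The exon of 182 loci (6.87%) overlapped an exon of another locus, and 763 loci (28.8%) overlapped the span of another locus, introns included. Among the 1285 loci with a neighbour and no overlap, the median gap was 862 bases, and 679 of them (52.8%) lay within 1000 bases of the neighbour.

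Of the 2651 loci, 67 had no count in any library, and 66 of those 67 are identical to a gene model. A locus with no gene model was assembled because reads of these libraries covered it, so its detection is given by how it was made and is no result. Each library detected 2361 to 2480 loci with at least 1 count, and 2132 loci (80.4%) had a count in all 12 libraries. The filter on low counts kept 2035 loci (76.8%) for testing. It kept 1824 of the loci with no gene model (84.4%), 138 of those identical to a model (33.3%) and 72 of the antisense loci (94.7%). Among genes that were not all found in this way, it kept 203 of the multi-exon loci with 1 transcript (39.8%), 453 of the loci with several transcripts (95.2%) and 7808 official genes (50.1%).

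The median level of a single-exon locus, as mean TPM over the 12 libraries, was 13.5 TPM (quartiles 6.44 and 29.3). By the same measure it was 14.5 TPM for loci with no gene model, 2.51 TPM for loci identical to one and 30.0 TPM for antisense loci. Loci alone on their sequence had a median of 19.8 TPM. Multi-exon loci with 1 transcript had a median of 2.57 TPM, those with several transcripts 31.0 TPM, and official genes 7.71 TPM. These levels are per length and are set side by side without a test, and the loci with no gene model were assembled from these reads. A mean over 100 TPM was found for 138 single-exon loci and a mean under 1 TPM for 159, of which 155 are identical to a gene model.

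**Figure D1:**
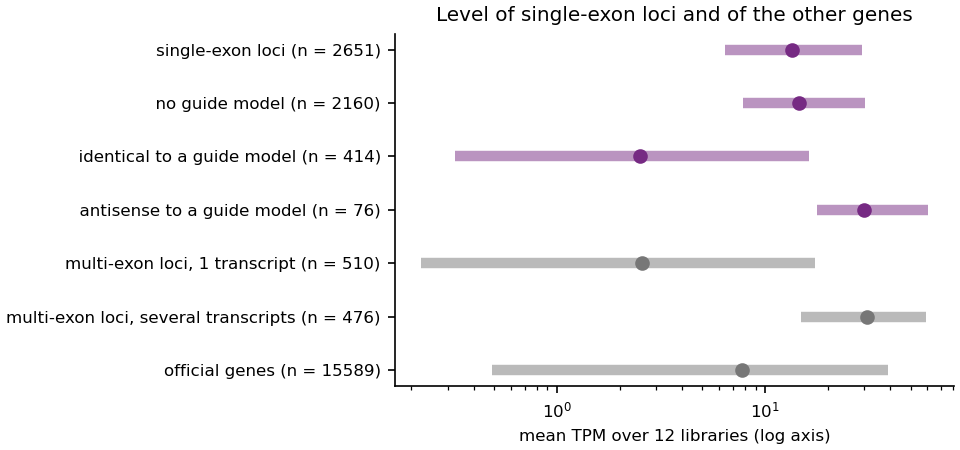
Mean TPM over the 12 libraries (log axis) of the single-exon loci, of their kinds by relation to a gene model, and of the other genes of the tables. Points are medians over genes and bars run between the quartiles; the single-exon loci with no gene model sit at 14.5 TPM and those identical to one at 2.51 TPM.

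Level and span are given next, without a test. Loci under 500 bases had a median of 2.35 TPM, and 78.0% of them are identical to a gene model. The median was 7.72 TPM at 500 to under 1000 bases, 15.1 TPM at 1000 to under 2500 bases, 21.0 TPM at 2500 to under 10000 bases and 35.7 TPM at 10000 bases or more. The share kept for testing was 13.5%, 49.2%, 91.8%, 99.5% and 100% in the same order of span. Loci on contigs had a median of 18.3 TPM, against 11.8 TPM on scaffolds. Loci overlapping the span of another locus had a median of 20.2 TPM, against 11.2 TPM for the rest.

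RSEM gives a posterior standard deviation for every count, which measures how far reads could belong to other listed genes. It reached 10% of the count in 52 of the 2584 single-exon loci with counts (2.01%), in 11.8% of the antisense loci and in 4.14% of official genes. This measure knows only the 19230 listed genes, so copies of a transposable element elsewhere in the genome were not seen by it. The coefficient of variation (CV) of TPM over the 12 libraries had a median of 27.6% among the 1124 single-exon loci with a mean count of at least 50, and of 26.4% among official genes.

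The loci with the highest level lay on 1 short sequence. Scaffold 1196 carries 12 annotated loci, 4 of them single-exon, and these 4 were among the 5 single-exon loci with the highest mean TPM. XLOC_043984 (scaffold 1196, 78 to 3349, minus strand, identical to a gene model) was at 48227, 70979, 21836 and 24787 TPM in P_Bb, at 79197, 29486, 28641 and 39195 TPM in P_BB, and at 36238, 8347, 18566 and 18412 TPM in M_BB. It was highest in P_BB bioreplicate 2 and lowest in M_BB bioreplicate 3, and the classes overlapped. XLOC_043981 (9564 to 11659, plus strand, antisense) was at 38959, 43705, 20737 and 19654 TPM in P_Bb, at 54663, 25816, 21677 and 27186 TPM in P_BB, and at 31414, 8111, 13351 and 12710.4 TPM in M_BB. The same libraries were highest and lowest, and the ratio of XLOC_043984 to XLOC_043981 stayed between 1.03 and 1.62 in the 12 libraries. XLOC_043987 (9287 to 9625, minus strand, identical to a gene model) ranged from 2712 to 11396 TPM. XLOC_043982 (11780 to 14287, plus strand, antisense) ranged from 2214 to 14502 TPM and was highest in M_BB bioreplicate 2. No function is given here to the loci of this scaffold.

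The remaining 6 of the 10 highest loci were spread over other sequences. XLOC_001500 is the only locus of contig 24913 (1 to 2283) and has no gene model. It was at 9771, 9845, 5879 and 6143 TPM in P_Bb, at 15219, 6558, 6983 and 6748 TPM in P_BB, and at 4445, 3535, 7020 and 4727 TPM in M_BB. P_BB bioreplicate 2 stood far above the rest, while M_BB bioreplicate 6 lay above several polygyne libraries. XLOC_003994, alone on contig 40074 (6 to 1007), varied less, between 983 TPM in M_BB bioreplicate 2 and 2244 TPM in P_BB bioreplicate 2, with a CV of 19.3%. The others were XLOC_039753 (scaffold 418, 1825 to 3666, mean 487 TPM), XLOC_002445 (contig 28576, 1 to 1772, mean 462 TPM), XLOC_038944 (scaffold 365, 67631 to 67958, identical to a gene model, mean 410.4 TPM) and XLOC_040760 (scaffold 494, 24439 to 26822, identical to a gene model, mean 388 TPM). None of these 10 loci passed the test in any comparison made here.

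The single-exon loci held a large and variable share of the reads. They took 23.0%, 25.6%, 20.0% and 18.7% of the expected counts in P_Bb, 28.2%, 19.8%, 21.1% and 20.9% in P_BB, and 23.7%, 15.8%, 18.2% and 18.5% in M_BB. The class means were 21.9% ± 3.10 in P_Bb, 22.5% ± 3.86 in P_BB and 19.1% ± 3.33 in M_BB (SD, n = 4 each). P_BB bioreplicate 2 was highest and M_BB bioreplicate 3 lowest, and all 3 classes overlapped. The 4 loci of scaffold 1196 alone took 1.90% to 12.4% of the counts of a library, and without them the share lay between 13.8% and 16.2% in every library.

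By genotype, the share was 21.9% ± 3.10 in P_Bb (SD, n = 4) and 20.8% ± 3.81 in SB/SB workers (SD, n = 8), a difference of 1.06 percentage points (exact permutation test over all splits of 4 libraries against 8, two-sided, p = 0.653). Without P_Bb bioreplicate 3 it turned to -0.203 points (exact permutation p = 0.909). By social form, it was 22.2% ± 3.26 in polygyne libraries (SD, n = 8) and 19.1% ± 3.33 in M_BB (SD, n = 4), a difference of 3.10 points (exact permutation test, two-sided, p = 0.154). Neither difference exceeded the spread between libraries. Without M_BB bioreplicate 2 the social form difference was 4.65 points (exact permutation p = 0.0364), and within the LGC libraries 5.93 points (exact permutation p = 0.0714, of which 0.0357 is the smallest possible). Without the 4 loci of scaffold 1196 it was 0.591 points (exact permutation p = 0.271).

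**Figure D2:**
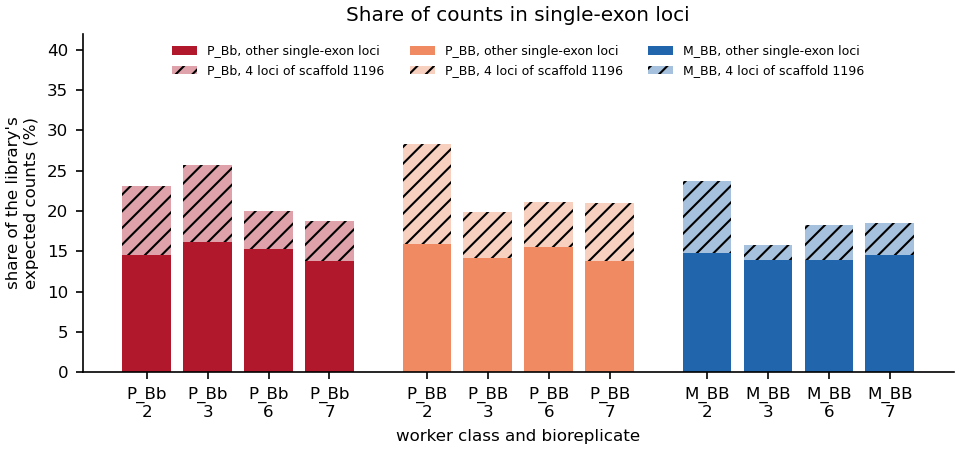
Share of each library's expected counts, in percent, that fell in the single-exon loci, by worker class and bioreplicate; the hatched part is the 4 loci of scaffold 1196. The solid part lies between 13.8% and 16.2% in all 12 libraries, while the hatched part runs from 1.90% to 12.4%.

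The first comparison asked which loci differ with the supergene genotype of the workers. Of the 2035 single-exon loci tested, 9 (0.442%) passed the edgeR quasi-likelihood test at a Benjamini-Hochberg adjusted p under 0.05, against 0.229% of all 10503 genes tested. All 9 were higher in P_Bb (background for higher 0.219%) and none was lower (background 0.00952%). Within the LGC libraries alone 4 of the 9 still passed. The edgeR adjusted p there was 0.128 for XLOC_036229, 0.138 for XLOC_044145, 0.170 for XLOC_001413, 0.341 for XLOC_041027 and 0.588 for XLOC_001337. Without M_BB bioreplicate 2 all 9 passed.

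At an unadjusted p under 0.05 there were 84 loci (4.13%, background 2.29%), 51 of them higher (background 1.06%) and 33 lower (background 1.24%) in P_Bb. The higher ones made up 60.7% of these 84, against 46.1% over all genes at that p. The split moved with the fit, to 55.2% with DESeq2 (all genes 39.3%), 75.6% with limma on log2(TPM + 1) (all genes 61.3%) and 81.0% within the LGC libraries (all genes 63.7%). TPM did not overlap between P_Bb and SB/SB libraries in 14 loci that were higher in P_Bb (0.688%, background 0.362%) and in 0 that were lower (background 0.0571%). The median log2 fold change was 0.06 over the single-exon loci tested and -0.01 over all genes tested.

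Most properties of the 9 loci were common among the loci tested. None of the 9 has a gene model at its position, as for 89.6% of the single-exon loci tested, each has 1 transcript (93.3% of those tested), and 8 have no strand (81.5% of those tested). There were 4 on contigs (27.6% of those tested), each the only locus of its contig (25% of those tested). All 9 are in the list of genes that the study chose as changed by genotype on these same libraries, so that list is not independent evidence of their direction. It names 3 of them as transposable elements, 1 as a virus protein and 5 as uncharacterized. The list holds 13 single-exon loci by genotype. All 13 had the higher mean TPM in P_Bb, 12 could be tested and 9 passed. This tally depends on the loci left out, of which 2 on the same list were lower in P_Bb without passing here. These are XLOC_016888 (SiOR463, log2 fold change -1.18, edgeR adjusted p = 0.612) and XLOC_003144 (a tc1 transposase, -0.71, edgeR adjusted p = 0.164). XLOC_023347, also left out and listed by the study as different among all 3 classes, was higher in P_Bb and passed. Its log2 fold change by genotype was 1.99 (edgeR adjusted p = 0.000386), with means of 67.4 TPM in P_Bb, 19.3 TPM in P_BB and 14 TPM in M_BB.

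The transposable element loci were Gypsy, L2 and Copia. Gypsy and Copia are retrotransposons with long terminal repeats, and L2 is a retrotransposon without them. XLOC_000229 (Gypsy), alone on contig 21838 (385 to 5499), was at 15.2, 24.2, 27.3 and 19.5 TPM in P_Bb, at 1.90, 3.03, 3.77 and 3.94 TPM in P_BB, and at 5.60, 3.18, 3.36 and 4.33 TPM in M_BB. The lowest P_Bb library lay above every SB/SB library. The means were 21.6 ± 5.34 TPM in P_Bb (SD, n = 4) and 3.64 ± 1.08 TPM in SB/SB (SD, n = 8), a log2 fold change of 2.50 with a standard error of 0.25 (edgeR adjusted p = 0.000302). It passed without each of the 12 libraries in turn, and no alternative gave an adjusted p above 0.00193.

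XLOC_001846 (L2), alone on contig 26080 (60 to 2135), was at 15.0, 19.1, 35.9 and 27.4 TPM in P_Bb, at 4.14, 5.92, 7.69 and 3.81 TPM in P_BB, and at 10.6, 5.42, 5.05 and 6.11 TPM in M_BB. The groups did not overlap, and the nearest SB/SB library was M_BB bioreplicate 2. The log2 fold change was 1.90 with a standard error of 0.30 (edgeR adjusted p = 0.00871, up to 0.0719 over the alternatives). XLOC_042917 (Copia, scaffold 796, 15564 to 18502) was at 13.4, 13.9, 13.3 and 11.1 TPM in P_Bb, at 4.06, 2.28, 2.61 and 1.72 TPM in P_BB, and at 5.23, 1.11, 3.37 and 3.38 TPM in M_BB. Its P_Bb libraries lay close together at 12.9 ± 1.24 TPM (SD, n = 4), against 2.97 ± 1.32 TPM in SB/SB (SD, n = 8). The log2 fold change of 2.03 (standard error 0.37, edgeR adjusted p = 0.0298) was called in 3 of the 12 fits with a library left out, and its adjusted p reached 0.150 over the alternatives.

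The virus protein locus was XLOC_036229 (Orf, scaffold 250, 319265 to 325032, minus strand), the smallest of the 9 differences. It was at 42.6, 48.3, 53.0 and 45.5 TPM in P_Bb, at 20.6, 26.6, 30.4 and 20.7 TPM in P_BB, and at 25.3, 25.6, 28.4 and 17.3 TPM in M_BB. Every P_Bb library exceeded every SB/SB library, and P_BB and M_BB covered much the same range. Its log2 fold change was 0.90 with a standard error of 0.16 (edgeR adjusted p = 0.0298). This call was made in 2 of the 12 fits with a library left out.

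The 5 uncharacterized loci had levels in P_Bb several times those in SB/SB workers. XLOC_036812 (scaffold 268, 132061 to 133993) was at 22.4, 10.6, 18.5 and 15.9 TPM in P_Bb, at 2.38, 3.17, 4.43 and 1.70 TPM in P_BB, and at 2.76, 1.17, 2.58 and 2.84 TPM in M_BB. It had the largest log2 fold change of the 9, 2.62 with a standard error of 0.32 (edgeR adjusted p = 0.00109), and passed without each library in turn. The groups were far apart and neither SB/SB class stood above the other.

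XLOC_044145 (scaffold 1317, 49 to 2060) was at 105, 92.3, 37.7 and 83.1 TPM in P_Bb, at 34.9, 16.5, 12.2 and 16.9 TPM in P_BB, and at 11.7, 11.5, 9.73 and 7.24 TPM in M_BB. The 3 classes did not overlap one another, with P_Bb highest and M_BB lowest. The log2 fold change by genotype was 2.42 with a standard error of 0.34 (edgeR adjusted p = 0.00355, up to 0.138 over the alternatives). By social form it was 1.95 with a standard error of 0.40, which did not pass (edgeR adjusted p = 0.186). It also differed among the polygyne colonies (edgeR adjusted p = 0.0432), with both libraries of the colony of bioreplicate 2 above those of the same class in the other colonies.

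XLOC_001337, alone on contig 24377 (3 to 2585), was at 34.4, 39.5, 48.2 and 57.3 TPM in P_Bb, at 1.48, 8.16, 18.4 and 5.93 TPM in P_BB, and at 10.9, 15.7, 12.7 and 8.94 TPM in M_BB. The groups were apart, although P_BB alone spread from 1.48 to 18.4 TPM. The log2 fold change was 2.10 with a standard error of 0.34 (edgeR adjusted p = 0.0118, up to 0.588 over the alternatives). XLOC_001413, alone on contig 24609 (1219 to 2486), was at 23.2, 30.5, 23.5 and 26.6 TPM in P_Bb, at 6.65, 9.87, 8.62 and 6.11 TPM in P_BB, and at 8.49, 12.9, 6.33 and 4.61 TPM in M_BB. Its P_Bb libraries stayed within a narrow range above all others, a log2 fold change of 1.64 with a standard error of 0.26 (edgeR adjusted p = 0.00995, up to 0.170 over the alternatives).

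XLOC_041027 (scaffold 517, 45259 to 47162) overlaps 2 other loci. It was at 48.3, 19, 33.3 and 57.4 TPM in P_Bb, at 3.11, 5.28, 12.1 and 10 TPM in P_BB, and at 11.5, 18.2, 6.55 and 11.6 TPM in M_BB. The lowest P_Bb library, at 19 TPM, was just above M_BB bioreplicate 3. The log2 fold change was 2.00 with a standard error of 0.33 (edgeR adjusted p = 0.0138, up to 0.341 over the alternatives). Of the 12 fits with a library left out, 10 gave the same call.

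**Figure D3:**
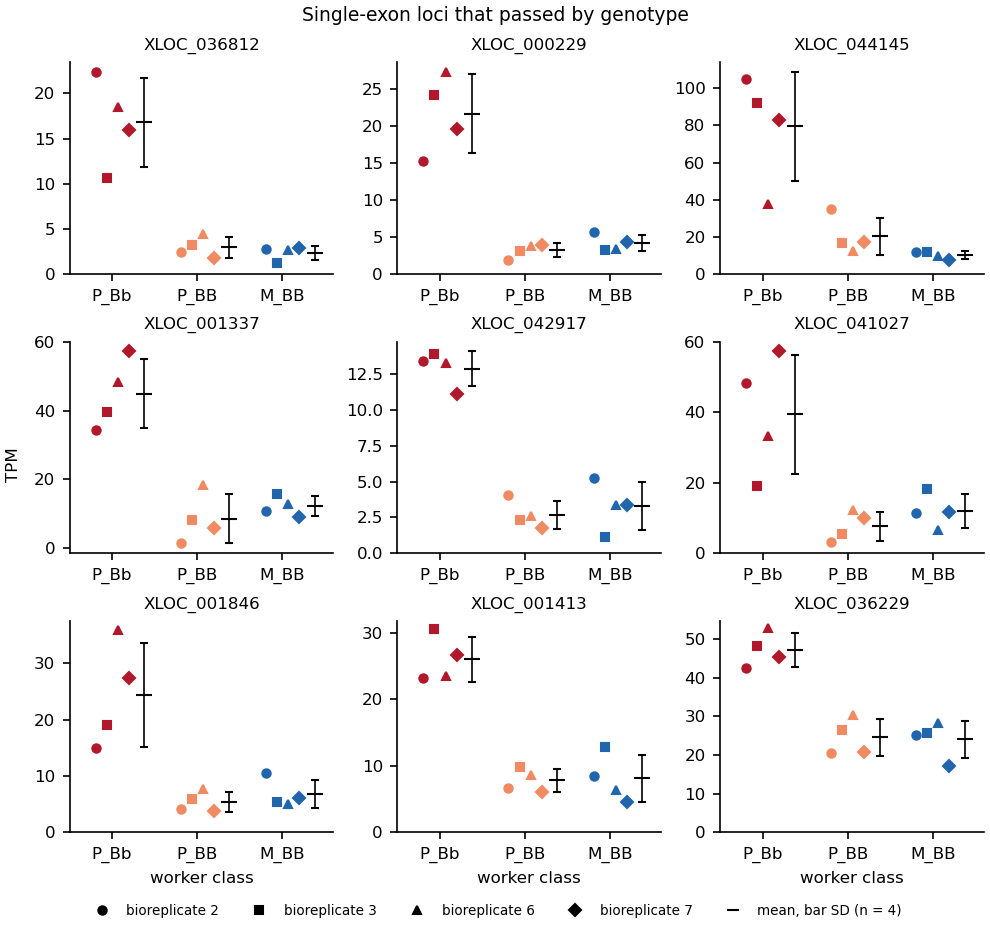
TPM of the 9 single-exon loci that passed by genotype, by worker class, with a marker for each bioreplicate and the class mean with its SD (n = 4). In each panel the 4 P_Bb libraries lie above all 8 SB/SB libraries, by the least margin in XLOC_041027 (19 TPM against 18.2 TPM).

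Another 4 single-exon loci on the study's genotype list had higher means in P_Bb without passing. XLOC_000436 (contig 22293, 2087 to 3210), named as a Lambda-type exonuclease, a virus protein, was at 12.9, 23.1, 24.6 and 16.1 TPM in P_Bb, at 5.79, 2.18, 12.6 and 3.22 TPM in P_BB, and at 2.89, 6.12, 8.16 and 1.78 TPM in M_BB. P_Bb did not overlap the others, by 12.9 against 12.6 TPM, and the log2 fold change was 1.76 with a standard error of 0.41 (edgeR adjusted p = 0.206). XLOC_001664 (contig 25430, 3 to 2285), named as a Pol protein, the polyprotein of retroelements that holds the reverse transcriptase, averaged 31.5 ± 7.86 TPM in P_Bb (SD, n = 4) and 15.2 ± 6.01 TPM in SB/SB (SD, n = 8). Its groups overlapped (log2 fold change 1.01, edgeR adjusted p = 0.459).

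XLOC_000568 (contig 22543, 743 to 1768) was too low to be tested, with 19, 20, 13 and 3 counts in P_Bb, 0, 1, 0 and 2 counts in P_BB, and 2, 1, 0 and 0 counts in M_BB. Each P_Bb library had more counts than any SB/SB library, at a depth where 1 or 2 reads decide the margin. XLOC_000345 (contig 22126, 184 to 2339) is identical to a gene model and has 2 transcripts of different length. It had 107, 79, 132 and 96.6 expected counts in P_Bb, 61, 69, 44.9 and 54 in P_BB, and 30, 71, 57 and 31 in M_BB. The counts did not overlap between P_Bb and SB/SB, whereas its TPM did, with 132 TPM in P_BB bioreplicate 2 (log2 fold change on counts 0.90, edgeR adjusted p = 0.245).

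Nestmates of the 2 genotypes share a colony, so P_Bb against P_BB compares workers of the same colonies. The main fit has no colony term, so it does not use this pairing and colony differences stay in its spread. By this contrast 5 single-exon loci passed (0.246%), all higher in P_Bb, against 0.133% of all genes. All 5 also passed by genotype, a comparison that shares the P_Bb and P_BB libraries with this one. The log2 fold changes between nestmates were 2.74 for XLOC_000229 (standard error 0.32, edgeR adjusted p = 0.00414), 2.49 for XLOC_036812 (0.40, 0.0265), 2.13 for XLOC_001846 (0.37, 0.0435), 2.39 for XLOC_001337 (0.43, 0.0438) and 2.35 for XLOC_041027 (0.42, 0.0438). With the bioreplicate number as a block the adjusted p was 0.0579 for XLOC_001846 and 0.0707 for XLOC_041027, so these 2 no longer passed. Within the LGC libraries only XLOC_000229 passed (edgeR adjusted p = 0.00866), with 0.193 for XLOC_036812 and XLOC_001846, 0.424 for XLOC_041027 and 0.842 for XLOC_001337. Values did not overlap between nestmates in 28 loci that were higher in P_Bb (1.38%, background 0.819%) and in 15 that were lower (0.737%, background 0.495%). At an unadjusted p under 0.05 there were 49 loci (2.41%, background 1.01%), split into 25 higher (background 0.486%) and 24 lower (background 0.524%) in P_Bb.

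The next comparison asked which loci differ with the social form of the colony. By social form 2 of the 2035 loci passed (0.0983%), both higher in polygyne workers and 0 lower, against 0.0476% of all genes (0.0286% higher and 0.019% lower). At an unadjusted p under 0.05 there were 169 loci (8.30%, background 8.67%), of which 119 were higher (background 3.68%) and 50 lower (background 5%) in polygyne workers. The higher ones made up 70.4%, against 42.4% over all genes at that p. This share was 67.2% with DESeq2 (all genes 41.6%), 89.4% with limma on log2(TPM + 1) (all genes 73.6%), 85.7% within the LGC libraries (all genes 60.3%) and 81.4% without M_BB bioreplicate 2 (all genes 50.8%). TPM did not overlap in 21 loci that were higher in polygyne libraries (1.03%, background 0.447%) and in 2 that were lower (0.0983%, background 0.238%). The median log2 fold change was 0.07 over the single-exon loci tested and -0.02 over all genes tested.

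The 2 loci that passed are uncharacterized, and each is the only locus of a short contig. XLOC_003265 (contig 33228, 2 to 1367) was at 118, 123, 189.8 and 269 TPM in P_Bb, at 161, 83.2, 150.2 and 184 TPM in P_BB, and at 19.2, 65.4, 41.1 and 40.8 TPM in M_BB. XLOC_003605 (contig 35838, 1 to 1210) was at 133, 186, 208 and 303 TPM in P_Bb, at 204, 94.5, 172 and 169 TPM in P_BB, and at 28.5, 79.2, 56.6 and 35.7 TPM in M_BB. In both loci the lowest polygyne library was P_BB bioreplicate 3 and the highest M_BB library was bioreplicate 3, and the groups did not overlap.

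XLOC_003265 averaged 159.8 ± 56.7 TPM in polygyne libraries (SD, n = 8) and 41.6 ± 18.9 TPM in M_BB (SD, n = 4), a log2 fold change of 1.92 with a standard error of 0.30 (edgeR adjusted p = 0.0284). XLOC_003605 averaged 184 ± 61.2 TPM in polygyne libraries and 50.0 ± 22.8 TPM in M_BB, a log2 fold change of 1.85 with a standard error of 0.28 (edgeR adjusted p = 0.0284). The ratio of XLOC_003605 to XLOC_003265 stayed between 0.876 and 1.51 over the 12 libraries, while each locus itself varied 10.6-fold or more.

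Both calls depended on the fit. With the bioreplicate block the edgeR adjusted p was 0.0695 for XLOC_003265 and 0.0841 for XLOC_003605. Without M_BB bioreplicate 2 the log2 fold changes were 1.75 and 1.73, with an edgeR adjusted p of 0.0765 for both, and within the LGC libraries they were 1.52 and 1.44 (edgeR adjusted p 0.502 and 0.716). Each was called in 3 of the 12 fits with a library left out.

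The study's list of genes changed by social form, chosen on these libraries, holds 13 single-exon loci. Of these 12 could be tested, 2 passed and 11 had the higher mean TPM in polygyne workers. TPM did not overlap in 7, among them XLOC_043759, which was lower in polygyne workers. This tally depends on the loci left out. XLOC_001842 (Pol-like) is on the same list and was lower in polygyne workers without passing here (log2 fold change -1.05, edgeR adjusted p = 0.445). Its means were 10.4 TPM in P_Bb, 9.57 TPM in P_BB and 20 TPM in M_BB. XLOC_041335 (scaffold 550, 17091 to 17941, uncharacterized) followed the 2 called loci in size. It was at 60.9, 91.2, 126 and 153 TPM in P_Bb, at 76.4, 45.1, 88.0 and 130.5 TPM in P_BB, and at 4.94, 63.4, 21.1 and 23.9 TPM in M_BB. M_BB bioreplicate 3 lay within the polygyne range, and the log2 fold change of 1.78 (standard error 0.44) did not pass (edgeR adjusted p = 0.408).

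Apart from XLOC_001842, the retroelement loci of that list were a Gypsy and a Pol locus. XLOC_032988 (Gypsy, scaffold 174, 406492 to 408670) was at 8.59, 5.34, 3.63 and 5.69 TPM in P_Bb, at 7.72, 10.1, 6.05 and 8.64 TPM in P_BB, and at 1.88, 1.03, 3.56 and 1.66 TPM in M_BB. The groups did not overlap, by 3.63 against 3.56 TPM (log2 fold change 1.64, standard error 0.40, edgeR adjusted p = 0.405). XLOC_002577 (Pol protein, contig 29149, 18 to 1695) averaged 34.3 ± 3.02 TPM in polygyne libraries (SD, n = 8) and 18.6 ± 6.99 TPM in M_BB (SD, n = 4), with M_BB bioreplicate 2 lowest at 9.82 TPM. Its log2 fold change was 0.87 with a standard error of 0.22 (edgeR adjusted p = 0.408). Of the 6 single-exon loci that the study's lists name as transposable elements, 4 by genotype and 2 by social form, 3 passed, all by genotype. The loci left out add XLOC_003144, lower in P_Bb, and XLOC_001842, lower in polygyne workers, and neither passed.

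Loci with other putative functions did not pass by social form. XLOC_020263 (named as CUGBP Elav-like, a family of RNA-binding proteins) lies antisense to a gene model on scaffold 41 from 719540 to 755011. It averaged 53.3 ± 5.11 TPM in polygyne libraries (SD, n = 8) and 36.4 ± 8.11 TPM in M_BB (SD, n = 4) without overlap, a log2 fold change of 0.51 (edgeR adjusted p = 0.445). XLOC_027187 (Whirlin-like, antisense, scaffold 91, 262379 to 271780) had a log2 fold change of 0.36 (edgeR adjusted p = 0.522) and overlapped. XLOC_030870 (AAA ATPase, scaffold 136, 542678 to 544279) had a log2 fold change of 1.25 (edgeR adjusted p = 0.484), with M_BB at 2.66, 8.13, 2.67 and 14.1 TPM. Among uncharacterized loci of the list, the log2 fold change was 0.67 for XLOC_006396, 0.63 for XLOC_011724 and 0.75 for XLOC_034835, none of which passed, and the posterior standard deviation of XLOC_034835 was 18.7% of its count.

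Only 2 loci were lower in polygyne workers without overlap. XLOC_043759 (scaffold 1067, 35936 to 39043) was at 12.6, 13.5, 17.8 and 16.8 TPM in P_Bb, at 14.3, 16.5, 11.3 and 7.22 TPM in P_BB, and at 18.5, 20.3, 27.5 and 23.7 TPM in M_BB. With M_BB above all others, the log2 fold change was -0.78 with a standard error of 0.22 (edgeR adjusted p = 0.445). XLOC_044514, alone on scaffold 2217 (9035 to 10359), was at 121, 114, 106 and 70.7 TPM in P_Bb, at 112, 86.5, 93.8 and 89.0 TPM in P_BB, and at 222, 123, 141 and 153 TPM in M_BB. M_BB bioreplicate 2 was highest, and the log2 fold change was -0.81 (edgeR adjusted p = 0.463), or -0.45 without that library and -0.19 within the LGC libraries.

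XLOC_008183, at the fifth largest rise among loci without overlap, lies on scaffold 5 (3586099 to 3587053) and averaged 13.9 ± 6.52 TPM in polygyne libraries (SD, n = 8) and 6.42 ± 0.993 TPM in M_BB (SD, n = 4). Its log2 fold change of 1.05 did not pass (edgeR adjusted p = 0.525). XLOC_000138, alone on contig 21551 (5837 to 6351), was too low to be tested. It had 38 counts in M_BB bioreplicate 2 (65.6 TPM) and 0 to 4 counts in each of the other 11 libraries.

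**Figure D4:**
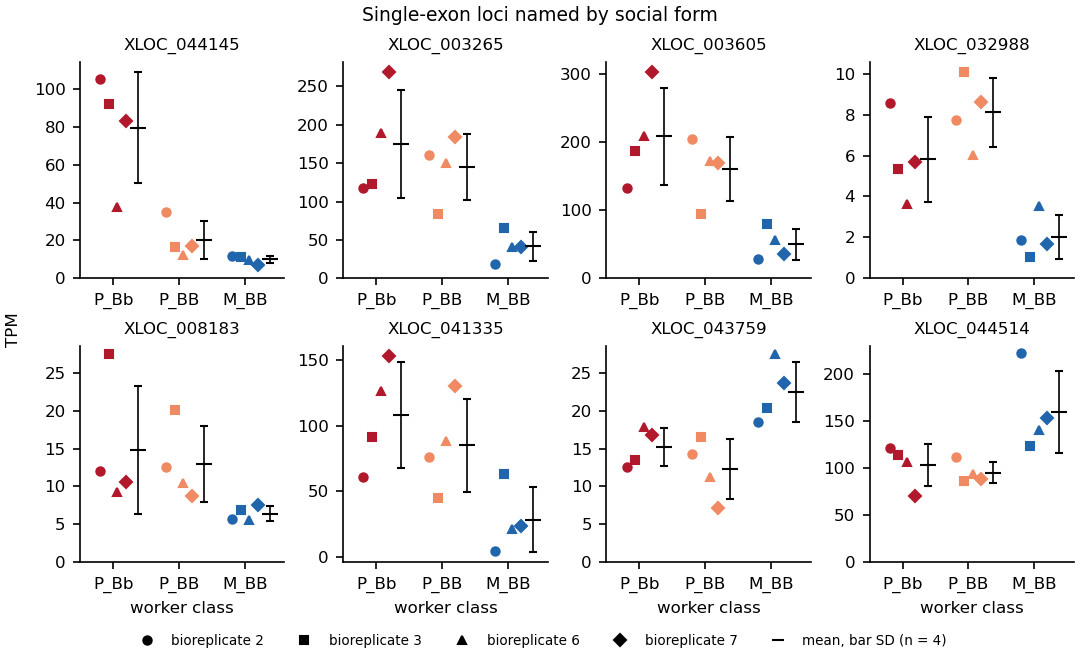
TPM by worker class of the single-exon loci named for social form: the 5 largest rises without overlap, XLOC_041335, and the 2 falls without overlap, with a marker for each bioreplicate and the class mean with its SD (n = 4). XLOC_003265 and XLOC_003605, which passed, lie at 83.2 TPM or more in polygyne libraries and at 79.2 TPM or less in M_BB.

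Comparing P_BB with M_BB sets the social forms side by side within the SB/SB genotype. By the edgeR quasi-likelihood test 0 single-exon loci passed, as did 0% of all genes, while 91 loci had an unadjusted p under 0.05 (4.47%, background 4.81%), 64 of them higher (background 2.18%) and 27 lower (background 2.63%) in P_BB. With limma 0 passed (all genes 0) and with DESeq2 3 passed (all genes 8). These 3 are named here after their values were seen. XLOC_003265 and XLOC_003605 had a log2 fold change of 1.82 and 1.70 with DESeq2 (adjusted p 0.000485 and 0.00066). XLOC_040784 had a log2 fold change of -1.93 with DESeq2 (adjusted p = 0.0297), at 1.12 to 3.16 TPM in P_BB and 4.59 to 12.5 TPM in M_BB, with a P_Bb mean of 5.66 TPM. Values did not overlap in 39 loci that were higher in P_BB (1.92%, background 1.13%) and in 6 that were lower (0.295%, background 0.638%).

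Each polygyne colony gave 2 libraries, so differences among the 4 polygyne colonies could be tested with genotype as a covariate. Of the 1951 single-exon loci tested in the polygyne libraries, 22 passed the edgeR quasi-likelihood test (1.13%), against 1.83% of all 10057 genes tested, and 474 had an unadjusted p under 0.05 (24.3%, background 25.3%). The 22 loci were highest in the colony of bioreplicate 2 in 7 cases, of bioreplicate 3 in 5, of bioreplicate 6 in 9 and of bioreplicate 7 in 1. The highest colony mean was 1.89 to 34.6 times the lowest (median 3.48). Both libraries of the highest colony lay above the 6 others in 18 of the 22. The 22 were chosen by the colony test on these same libraries. Their ratios and this separation thus follow largely from the choice and are no separate result. No gene model was given for 18 of the 22 (89.4% of the loci tested), and 6 were alone on their sequence (24.9% of the loci tested). Colony, day of collection and day of sampling cannot be told apart. Both libraries of the colony of bioreplicate 7 have the prefix LGC16 and the 6 others LGC, so that colony cannot be told apart from the prefix either. The count was unsteady, with 0 loci by limma (all genes 6) and 123 by DESeq2 (all genes 639). It moved both up and down, as did the count over all genes, in fits that leave out 1 library. Such a fit leaves a colony with 1 library.

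The smallest p belonged to XLOC_003793, alone on contig 37774 (40 to 1110). It was at 114, 30.2, 23.3 and 19 TPM in P_Bb, at 129, 37.0, 24.6 and 13.7 TPM in P_BB, and at 1.23, 206, 191 and 271 TPM in M_BB. Among polygyne libraries both of the colony of bioreplicate 2 were high, 7.44 times the lowest colony (edgeR adjusted p = 0.000706). In M_BB the library of bioreplicate 2 was the lowest of all 12 and the other 3 the highest of all 12. XLOC_002097, alone on contig 26999 (2 to 1975), was at 65.8, 13.9, 23.0 and 18.8 TPM in P_Bb, at 70.6, 20.0, 26.8 and 26.3 TPM in P_BB, and at 15.9, 184, 216 and 154 TPM in M_BB (edgeR adjusted p = 0.00275). It had the same highest colony and the same low M_BB library, although the ratio of XLOC_003793 to XLOC_002097 varied from 0.0774 to 2.17.

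XLOC_001448, named after its values were seen, is alone on contig 24728 (2 to 1197) and repeated this order. It was at 45.5, 22.7, 7.33 and 4.16 TPM in P_Bb, at 36.4, 12.0, 10.6 and 9.95 TPM in P_BB, and at 1.19, 59.8, 65.6 and 59.7 TPM in M_BB (edgeR adjusted p = 0.0382). In these 3 loci M_BB bioreplicate 2, the library that stood apart, lay at or near the lowest value while the other M_BB libraries lay above every polygyne library. The part of that library in the pattern was not tested, since the colony test does not use M_BB.

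XLOC_019182 (scaffold 37, 328742 to 343076, minus strand) had the widest ratio between colonies, 34.6. It was at 6.44, 0.240, 13.7 and 5.05 TPM in P_Bb, at 4.30, 0.380, 7.72 and 1.12 TPM in P_BB, and at 0, 6.71, 7.29 and 0 TPM in M_BB (edgeR adjusted p = 0.00619). The colony of bioreplicate 3 was low in both libraries, and 2 monogyne libraries had no count. The locus overlaps 2 others, and its posterior standard deviation was 21.7% of its count.

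XLOC_041357 (scaffold 553, 30778 to 33074) was at 22.6, 75.1, 33.1 and 25.2 TPM in P_Bb, at 18.2, 69.9, 30.4 and 31.5 TPM in P_BB, and at 59.0, 19.9, 45.4 and 24.3 TPM in M_BB (edgeR adjusted p = 0.0183). Both libraries of the colony of bioreplicate 3 stood above the other 6. The next locus on that scaffold, XLOC_041358 (40138 to 44973), also passed (edgeR adjusted p = 0.0432) and was highest in the same colony, at 59.5 TPM on average against 22.1 TPM in the lowest. XLOC_017096 (scaffold 29, 1667803 to 1675639, identical to a gene model) had the narrowest ratio, 1.89, with 171 and 177 TPM in the colony of bioreplicate 2 and 86.5 to 121 TPM in the other polygyne libraries (edgeR adjusted p = 0.0195). Scaffold 268 held 2 loci that passed, XLOC_036805 and XLOC_036808, both highest in the colony of bioreplicate 6, at 85.8 and 426 TPM on average.

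**Figure D5:**
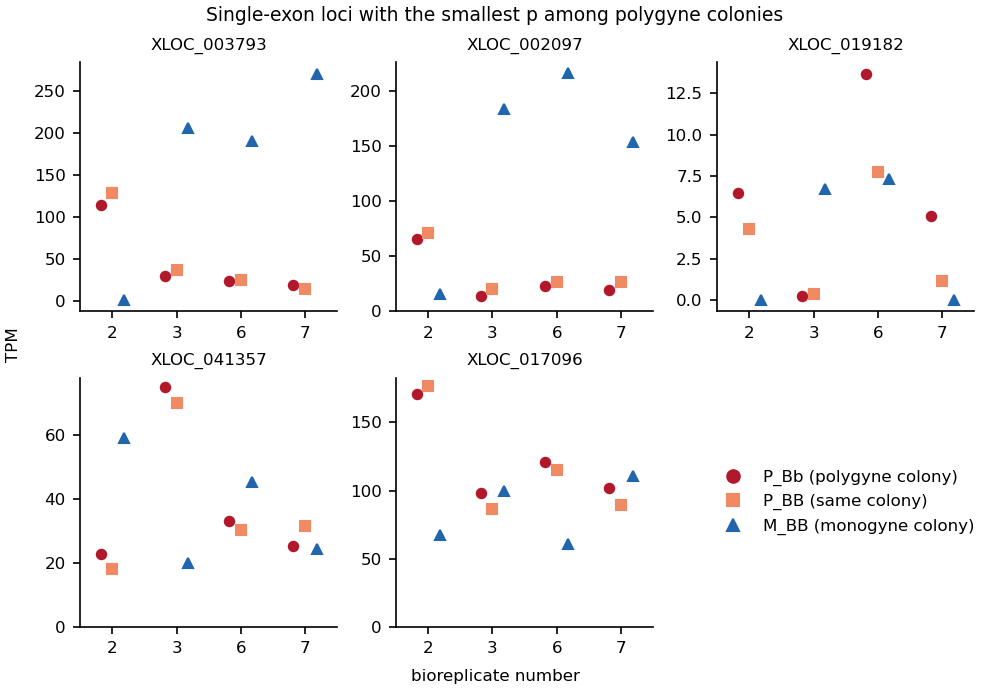
TPM by bioreplicate number of the 5 single-exon loci with the smallest p among the 4 polygyne colonies; circles and squares are the P_Bb and P_BB libraries of 1 polygyne colony and triangles the M_BB library of the same number. In XLOC_003793 both libraries of colony 2 (114 and 129 TPM) lie above the 6 other polygyne libraries, and 3 M_BB libraries lie higher still.

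Variation over the libraries spanned a wide range. The lowest CV among loci with a mean count of at least 50 was 9.28% in XLOC_028744 (scaffold 109, 103779 to 106663), with 36.2 to 48.4 TPM over the 12 libraries. XLOC_031607 (scaffold 148, 600309 to 601926) followed with 9.91% and XLOC_032731 (scaffold 169, 415331 to 417729) with 10.1%. The highest CV was 111% in XLOC_001835, alone on contig 26033 (19 to 2111), which was at 119 TPM in M_BB bioreplicate 2 and at 5.31 to 54.0 TPM elsewhere. XLOC_003912, alone on contig 39012 (1 to 1056, CV 107%), likewise was at 882 TPM in M_BB bioreplicate 2 and at 90.1 to 237 TPM elsewhere. XLOC_032915 (scaffold 173, 202114 to 204601, identical to a gene model, CV 105%) was high in the polygyne colony of bioreplicate 6, at 108 TPM in P_Bb and 69.0 TPM in P_BB, and at 57.4 TPM in M_BB of that number.

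The longest loci were expressed at moderate and even levels. XLOC_020259 (scaffold 41, 443460 to 492942, minus strand) spans 49483 bases without an annotated intron, at a mean of 27.1 TPM and a CV of 16.2%. XLOC_014904 (scaffold 22, 44574 bases, antisense) averaged 40.3 TPM and XLOC_011353 (scaffold 12, 43441 bases) averaged 26.3 TPM. The shortest, XLOC_037945 (scaffold 316, 26261 to 26428, 168 bases, identical to a gene model), had no count in any library.

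Some scaffolds held many single-exon loci. Scaffold 185 held 27 of them among 80 annotated loci, between 3133 and 497523, with mean levels of 4.6 to 33.5 TPM (median 10). Of these, 26 were tested and 0 had an unadjusted p under 0.05 by genotype or by social form, against 2.29% and 8.67% of all genes. Scaffold 5 held 21 among 565 loci. There, 15 lay between 3553700 and 3620328, a stretch that holds 16 XLOC genes of the tables, at a median of 6.26 TPM. XLOC_008183 is one of them. In all, 25 scaffolds held 10 or more single-exon loci.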

How the data were processed

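The authors trimmed the reads, assembled transcripts on the Si_gnH genome with the Tuxedo pipeline, kept assembled loci with an open reading frame and similarity to a known protein, and added them to the official genes. They mapped each library onto these 19230 genes with Bowtie2 and estimated values with RSEM. The deposited expected counts are not scaled for library size, and the deposited TPM values are scaled for transcript length and library total. The authors also deposited the exon annotation of the assembled loci, from which spans and positions on Si_gnH were taken. The single-exon loci and the gene lists were chosen with earlier results of these data known.

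After rounding to whole numbers, expected counts were fitted with edgeR (4.0.16, R 4.3.3) by its robust quasi-likelihood test in 1 model of the 3 worker classes, after filterByExpr and TMM scaling. Adjusted p-values follow Benjamini and Hochberg over the 10503 genes tested, or over 10057 for colony. As in the study's methods, the model has no term for the bioreplicate. The log2 fold changes are on the count scale. Their standard errors were derived from the test, as the absolute log2 fold change divided by the square root of the F statistic. Shares of counts were compared by exact permutation over all splits into 4 and 8 libraries, with 0.00202 as the smallest possible p. Libraries of a class differed beyond counting noise, with a chi-square of at least 5.99 per degree of freedom for every pair. Each library of a class came from a different colony, so the spread within a class is between colonies. The 8 polygyne libraries come from 4 colonies, and the class model and the permutations count them as independent. The colony test sets colonies against the spread between nestmate libraries, so its p-values measure spread within colonies. Counts come from amplified RNA, so depth limits cover counting error only.

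The bioreplicate numbers pair the libraries, because the labels give P_Bb and P_BB of a number the same colony, and the study's supplement gives the monogyne colony of that number shared days of collection and sampling. Nestmate libraries deviated together from their classes, with a correlation over all genes tested of 0.402 at the median (0.0846 to 0.65). Over the single-exon loci tested it was 0.319 (0.0461 to 0.61). For libraries of different bioreplicate numbers the median was -0.0876 over all genes tested and -0.076 over the single-exon loci. Alternatives were the bioreplicate block, the library name prefix as a factor, upper-quartile size factors, DESeq2 (1.42.0), limma (3.58.1) on log2(TPM + 1), other filters on low counts (none, or at least 10 counts in every library), an adjusted p under 0.01, loci with 1 transcript only, and each library left out in turn. The fits within the LGC libraries, and shares without scaffold 1196, were added after the data were seen. The fits were also run on simulated counts drawn independently for each library. Apart from a set of genes changed in 1 colony, nestmate libraries shared no deviation there. That run therefore gives no error rate for libraries paired as these are.

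Loci named in the text passed in a comparison, are in the study's list, have the 10 highest levels, have the 5 largest rises or falls without overlap by genotype or social form, have the 3 highest or lowest coefficients of variation, are the 3 longest or the shortest, lie on the 2 scaffolds with the most loci, or have the 5 smallest p by colony. The putative functions come from the study's list. No genome sequence was used here, so no sequences are shown. Python 3.11.15 with pandas 2.3.3, scipy 1.17.1 and numpy 2.4.6 served for the remaining steps.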

Additional observations from a re-analysis of the deposited data

Results flagged for a closer look

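The libraries of each class were searched for a library that lies far from the other 3, relative to the range of the class, in the share of counts and in the TPM of the named loci. This was found in 18 of 162 groups of 4 libraries, where chance gives about 1 in 20, or 8.1, for unselected and independent values. The values here are neither, since many loci were named for their variation or their differences and several move together, so the 2 numbers cannot be compared as a test.

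P_BB bioreplicate 2 was the highest library of its class in 7 of these. It held 28.2% of its counts in single-exon loci, against 19.8% to 21.1% in the other P_BB libraries. It was at 15219 TPM for XLOC_001500, against 6558 to 6983 TPM, and at 54663 TPM for XLOC_043981, against 21677 to 27186 TPM. For XLOC_003994 it was at 2244 TPM, against 1648 to 1689 TPM. It also stood above the other P_BB libraries in XLOC_001835 (41.4 TPM against 11.9 to 15.9), XLOC_002097 (70.6 against 20.0 to 26.8) and XLOC_030870 (22.3 against 15.3 to 16.4).

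M_BB bioreplicate 2 was the highest of its class in XLOC_003912 (882 TPM against 90.1 to 164), XLOC_001835 (119 against 5.31 to 20.9) and XLOC_000138 (65.6 against 0 to 6.85). These 3 loci are each alone on a contig, and this is the library with the lowest rank correlation with the others.

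Among P_Bb libraries, bioreplicate 2 was at 114 TPM for XLOC_003793 (others 19 to 30.2), bioreplicate 3 at 27.4 TPM for XLOC_008183 (others 9.23 to 12.1), bioreplicate 6 at 108 TPM for XLOC_032915 (others 6.72 to 23.2), and bioreplicate 7 at 5199 TPM for XLOC_043987 (others 9028 to 9743). The nestmate library P_BB bioreplicate 6 stood apart in XLOC_032915 as well, at 69.0 TPM against 5.43 to 15.9.

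The remaining cases were small. P_BB bioreplicate 3 was at 3.28 TPM for XLOC_000138, at which the other P_BB libraries had no count. P_BB bioreplicate 6 was at 52.2 TPM for XLOC_031607 (others 45.7 to 46.7), and M_BB bioreplicate 3 was at 1.17 TPM for XLOC_036812 (others 2.58 to 2.84).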

How the results depend on the processing

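Counts in brackets are over all genes tested in the same fit, where given. By genotype 9 loci passed (24), against 15 with DESeq2 (37) and 3 with at least 10 counts in every library (4). Within the LGC libraries 5 passed (15), and 5 passed at an adjusted p under 0.01. Fits that leave out 1 library gave 6 to 10 (18 to 26). With the bioreplicate block 9 passed (22), the same 9 loci. By social form 2 passed (5), against 6 with DESeq2 (26). There were 0 with limma (3), the library name prefix as a factor (0), the bioreplicate block (0), the LGC libraries alone (0) or an adjusted p under 0.01. Fits that leave out 1 library gave 0 to 3 (0 to 6). They gave 0 without M_BB 2, 6 or 7, without P_BB 2, 6 or 7, or without P_Bb 2, 3 or 6. Between nestmates 5 passed (14), against 10 with DESeq2 (28) and 2 with the prefix as a factor (8). Only 1 passed with at least 10 counts in every library (2), within the LGC libraries (1) or at an adjusted p under 0.01. With the block 4 passed (11), and 3 of these were among the 5. Fits that leave out 1 library gave 1 (P_BB 3 or 7, P_Bb 2, 6 or 7), 2 (P_BB 6 or M_BB 7), 3 (P_BB 2 or P_Bb 3) or up to 8 (M_BB 2). Over all genes these fits gave 1 to 22. Between SB/SB workers 0 passed (0), against 3 with DESeq2 (8). Fits that leave out 1 library gave 0 (0), except 1 without M_BB 3 (1). By colony 22 passed, against 123 with DESeq2, 0 with limma, 192 with no filter on low counts, 11 with at least 10 counts in every library, 3 at an adjusted p under 0.01 and 2 to 528 in fits that leave out 1 library. Over all genes 184 passed by colony, against 639 with DESeq2, 6 with limma and 1047 with no filter on low counts. With at least 10 counts in every library 96 genes passed by colony. In fits that leave out 1 library, the colony count over all genes moved both up and down too. Such a fit leaves a colony with 1 library. The block changed no call by genotype or between SB/SB workers, and the colony test has the colony as its own term.

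The difference in the share of counts between P_Bb and SB/SB workers was 1.06 points, ran from -0.203 to 2.12 in fits that leave out 1 library, and turned to -0.203 (exact permutation p = 0.909) without P_Bb bioreplicate 3. The difference by social form ran from 2.01 to 4.65 points, highest without M_BB bioreplicate 2 (exact permutation p = 0.0364). Of the values of single loci under the alternatives, 515 kept their direction and side of the threshold, 107 no longer passed, 5 newly passed and 0 reversed. Loci that failed in the main fit count among the 515 each time they failed again. The 107 come only from the calls that had passed, 9 by genotype, 5 between nestmates and 2 by social form. The cause of these changes was not tested. At 1662249 to 4101327 counts per library, the lowest loci have only a few reads each.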
